A study of Mus musculus with 6 samples.

Results

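The genes described here encode the proteins that carry a cell through mitosis: the kinases and cyclins that start it, the spindle checkpoint, the kinetochores, the motors and bundling proteins of the spindle, and the machinery that separates sister chromatids. They were taken as a list of 36 named genes, and 35 of them were measured among 22180 genes. Ccnb1, the gene of cyclin B1, was not analysed here. A gene counted as measured when a probe set was assigned to it alone, and the brightest such probe set over the 6 arrays stood for it. The RNA was that of DP42, a mouse myeloma line (myeloma is a cancer of plasma cells). Over 24 h the line grew by itself, beside B cells or beside neutrophils, labelled "neutrophils (IMC)", and 2 Affymetrix arrays were made for each of the 3 groups. Co-cultured cells were separated by flow sorting before lysis, the design names the B-cell co-culture as the control, and the question it addresses is what neutrophils change in the myeloma cells. The titles of the co-culture samples name the partner cells (B-cells or IMCs), while their cell type label is DP42 and their descriptions name myeloma, and they are taken as DP42 here. Strain, sex and age of the mice that gave the partner cells are not given in the sources used here, and all groups rest on this 1 myeloma line. Nothing in the labels states whether replicate arrays had cultures of their own, so a p-value here reflects array-to-array spread, which may be technical.

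At the entry to mitosis, the kinase Cdk1 bound to a B-type cyclin is switched on by Cdc25 phosphatases, and with Aurora and Polo-like kinases it drives chromosome condensation and spindle assembly. The spindle checkpoint holds Cdc20 until every kinetochore is attached. The anaphase-promoting complex then marks securin and the cyclins for destruction, separase cuts cohesin, and the chromatids part. Most of these genes are transcribed late in the cycle. Their control involves DREAM and MuvB complexes that bind the cell cycle genes homology region (CHR), NF-Y at CCAAT boxes, and Foxm1. In a growing myeloma line the amount of their RNA in a lysate depends on how many cells are in G2 and mitosis. In bulk RNA, fewer such cells and less RNA per cell cannot be told apart.

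Most promoters of the list hold these motifs, which the choice of genes did not use. Of the 35 measured genes 28 had a promoter in the RefSeq table of GRCm38.p6, which gives 250 bases before to 50 after a start site. Aurkb, Ccna2, Cdc25c, Foxm1, Incenp, Kif20a and Tpx2 were not matched. The CHR core, searched as TTTGAA or TTCGAA on both strands, was found in 22 of the 28 (78.6%), against 19.2% of all 32851 promoters and 19.4% of the 16990 measured genes that had one. CCAAT, on both strands, was found in 21 of 28 (75%), against 37.4% of all promoters and 41.6% of those measured genes. Both motifs were found in 20 of 28 (71.4%), against 7.53% and 7.89%. Among 97 other mitosis genes with a promoter, 49.5% held the CHR core, 57.7% CCAAT and 32.0% both. A CHR core and a CCAAT box can share 1 base at most. The matches are letters in a window, not shown binding sites. A CHR core lay within 50 bases of a start site in 21 of the 28 genes (75%), against 5.13% of measured genes with a promoter. CCAAT lay within 150 bases before a start site in 21 of 28 (75%), against 29.6%.

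**Figure D1:**
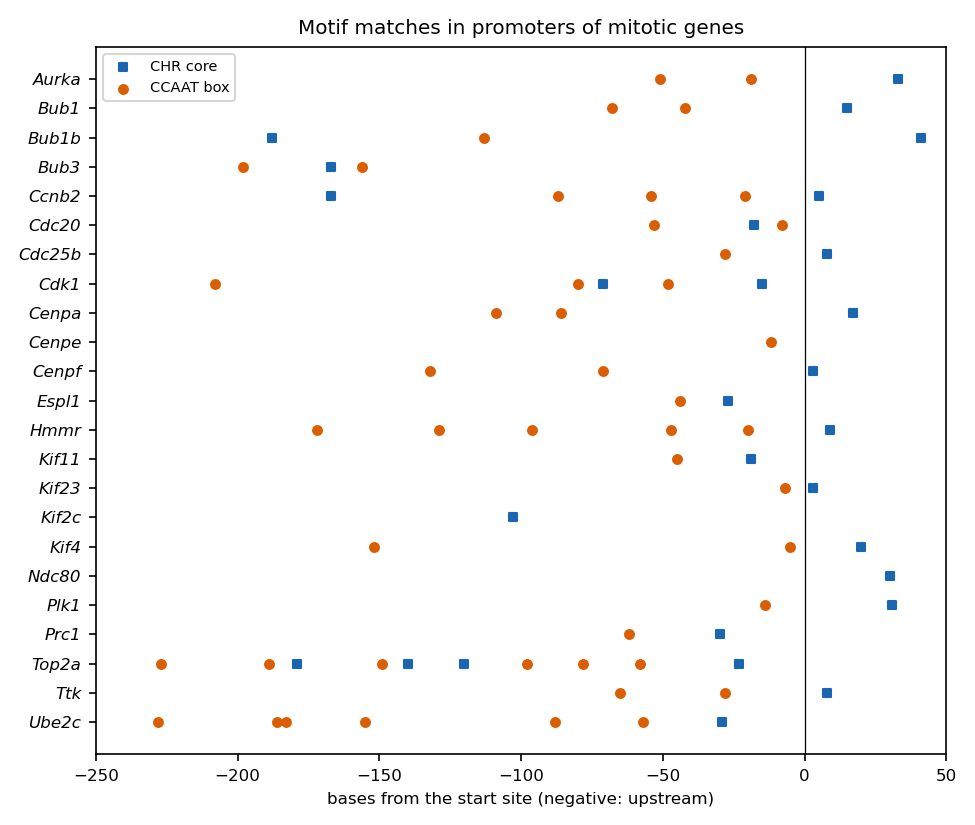
Matches of the CHR core (squares) and of CCAAT (circles) in the promoters of measured mitotic genes that hold either motif, with 1 start site drawn per gene; the x axis is the distance in bases from the start site, negative upstream. CHR cores gather around the start site, with 21 of 28 genes holding one within 50 bases of a start site.

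Promoter stretches of 4 genes are given, 120 bases that end just before the start site, written 5′ to 3′ with CHR cores and CCAAT boxes on either strand in capitals. Cdk1 is the central kinase of mitotic entry, at chr10:69352913-69353032 (minus strand). Cdc20 is the gene that stood lowest against culture alone, at chr4:118437344-118437463 (minus strand). Prc1 was among the genes with the largest positive differences, at chr7:80294356-80294475 (plus strand), and the later of its 2 start sites is used. Birc5 had the largest difference between neutrophil and B-cell co-culture, at chr11:117849117-117849236 (plus strand), and its 300 bases hold neither motif. These 4 were chosen after their values were seen.
Cdk1: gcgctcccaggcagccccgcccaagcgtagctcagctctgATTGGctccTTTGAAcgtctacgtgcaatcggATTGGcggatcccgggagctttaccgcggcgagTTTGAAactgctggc
Cdc20: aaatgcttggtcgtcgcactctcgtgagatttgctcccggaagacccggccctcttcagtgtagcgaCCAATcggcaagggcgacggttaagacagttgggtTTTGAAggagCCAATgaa
Prc1: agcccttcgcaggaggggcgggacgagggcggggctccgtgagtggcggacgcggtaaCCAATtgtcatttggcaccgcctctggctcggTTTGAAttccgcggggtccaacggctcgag
Birc5: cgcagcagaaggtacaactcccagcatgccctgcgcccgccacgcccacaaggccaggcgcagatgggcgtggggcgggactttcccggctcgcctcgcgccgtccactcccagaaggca
The stretch of Cdk1 holds 2 CHR cores and 2 CCAAT boxes, that of Cdc20 holds 1 and 2, and that of Prc1 holds 1 of each. With neutrophils against culture alone, the 22 genes with a CHR core had a median log2 difference of 0.13 (-0.07 to 0.32) and the 6 without one had a median of 0.18 (0.10 to 0.26), as a description with no test. In the other mitosis genes the order in that comparison was the opposite, with medians of 0.18 for 48 genes with the core (-0.01 to 0.40) and 0.16 for 49 without it (-0.11 to 0.34). With neutrophils against B cells both lists had the same order. Medians with and without the core were 0.12 and 0.16 in the list, and 0.16 and 0.18 in the other mitosis genes. For B cells against culture alone they were 0.01 and 0.00, and 0.00 and -0.02.

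Before the results, 3 facts of the arrays bear on them. First, all 35 probe sets lay above the median of every array and 30 of them above the upper quartile. The probes of a gene set its brightness, so levels are compared between arrays and not between genes. Second, the B-cell arrays differed more than the others: the median gap between replicates of the 35 genes was 0.17 log2 for B cells, 0.04 for culture alone and 0.05 for neutrophils. Last, the mean of 1394 olfactory and vomeronasal receptor genes, which lie at the dim end, was 5.56 and 5.51 for cells alone, 5.27 and 5.59 for the B-cell group and 5.13 and 5.05 for the neutrophil group. Of 9 genes listed as plasma cell markers, with the B-lineage factor Pax5 among them, 6 were above the median of every array. Mature B cell markers were above it for 9 of 12 genes, with a list mean between 9.95 and 10.01 on all 6 arrays. The mean of 25 neutrophil markers was 6.71 and 6.76 for cells alone, 6.75 and 6.85 for the B-cell group and 7.04 and 7.09 for the neutrophil group. In limma 5 of them (Ngp, Retnlg, Lcn2, S100a8 and Elane) rose with neutrophils against culture alone and 1, Ngp, against B cells. Of all genes 0.131% and 0.0316% were called higher there. Not all markers went up: against B cells 19 of 25 were above 0, and the lowest difference was -0.24. Only 4 of 25 were above the median on every array. These marker values moved with the groups, and their part in the mitotic gene values was not tested.

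Mitotic genes stood slightly higher with neutrophils than in the other cultures, as did most genes of their brightness, and 0 of the 35 passed the test in any comparison. The sign of their median turned when a measure of dim-end signal, which itself differed between the groups, was added to the fit, as given further on. The directions are therefore stated for the deposited scale only. The test was limma's moderated test on all 6 arrays, adjusted by Benjamini-Hochberg over all 22180 genes, and a call needed an adjusted p under 0.05. Against B cells the median log2 difference of the 35 was 0.12, running from -0.03 for Ccnb2 to 0.32 for Birc5, with 34 of 35 above 0. The background in that comparison was 0.0496% of all genes called, 0.0316% higher. Against culture alone the median was 0.14, from -0.07 for Cdc20 to 0.32 for Hmmr, also with 34 of 35 above 0, and the background was 1.49% called, 0.131% higher. With B cells against culture alone the median was 0.01, from -0.20 for Cdc20 to 0.19 for Hmmr, with 20 of 35 above 0, and the background was 0% called in either direction (869 genes at an unadjusted p under 0.05). The largest difference in any of the 3 comparisons was thus about 1.25-fold. At an unadjusted p under 0.05 in limma, 5 mitotic genes were higher with neutrophils than with B cells (14.3%, against 8.1% of all genes and 16.8% of 6609 other genes in their range of mean brightness). Against culture alone 3 were higher (8.57%, against 5.97% and 10.4%), so both member shares lay above the share of all genes and below that of equally bright genes. Between B cells and culture alone 0 mitotic genes were past that p (1.61% of all genes were higher). Each pair of the 3 comparisons shares the arrays of 1 group, so likeness between them is not a repeat.

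The 95% intervals of the differences, not adjusted for the number of genes, give a range for the size of each. Standard errors of the 35 genes ran from 0.09 to 0.13 log2. Against B cells the intervals of 34 of 35 genes lay within 1.5-fold either way, the exception being Birc5, whose interval reached 0.62 log2. In the other 2 comparisons the intervals of all 35 lay within 1.5-fold. Against B cells 5 of 35 intervals lay above 0, though no gene was called after adjustment. The fit used a spread common to all groups, while the B-cell replicates differed more than the others. The intervals may therefore be too wide for neutrophils against culture alone and too narrow where B cells enter. With 2 arrays in a group, they do not settle how small a change would be missed.

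**Figure D2:**
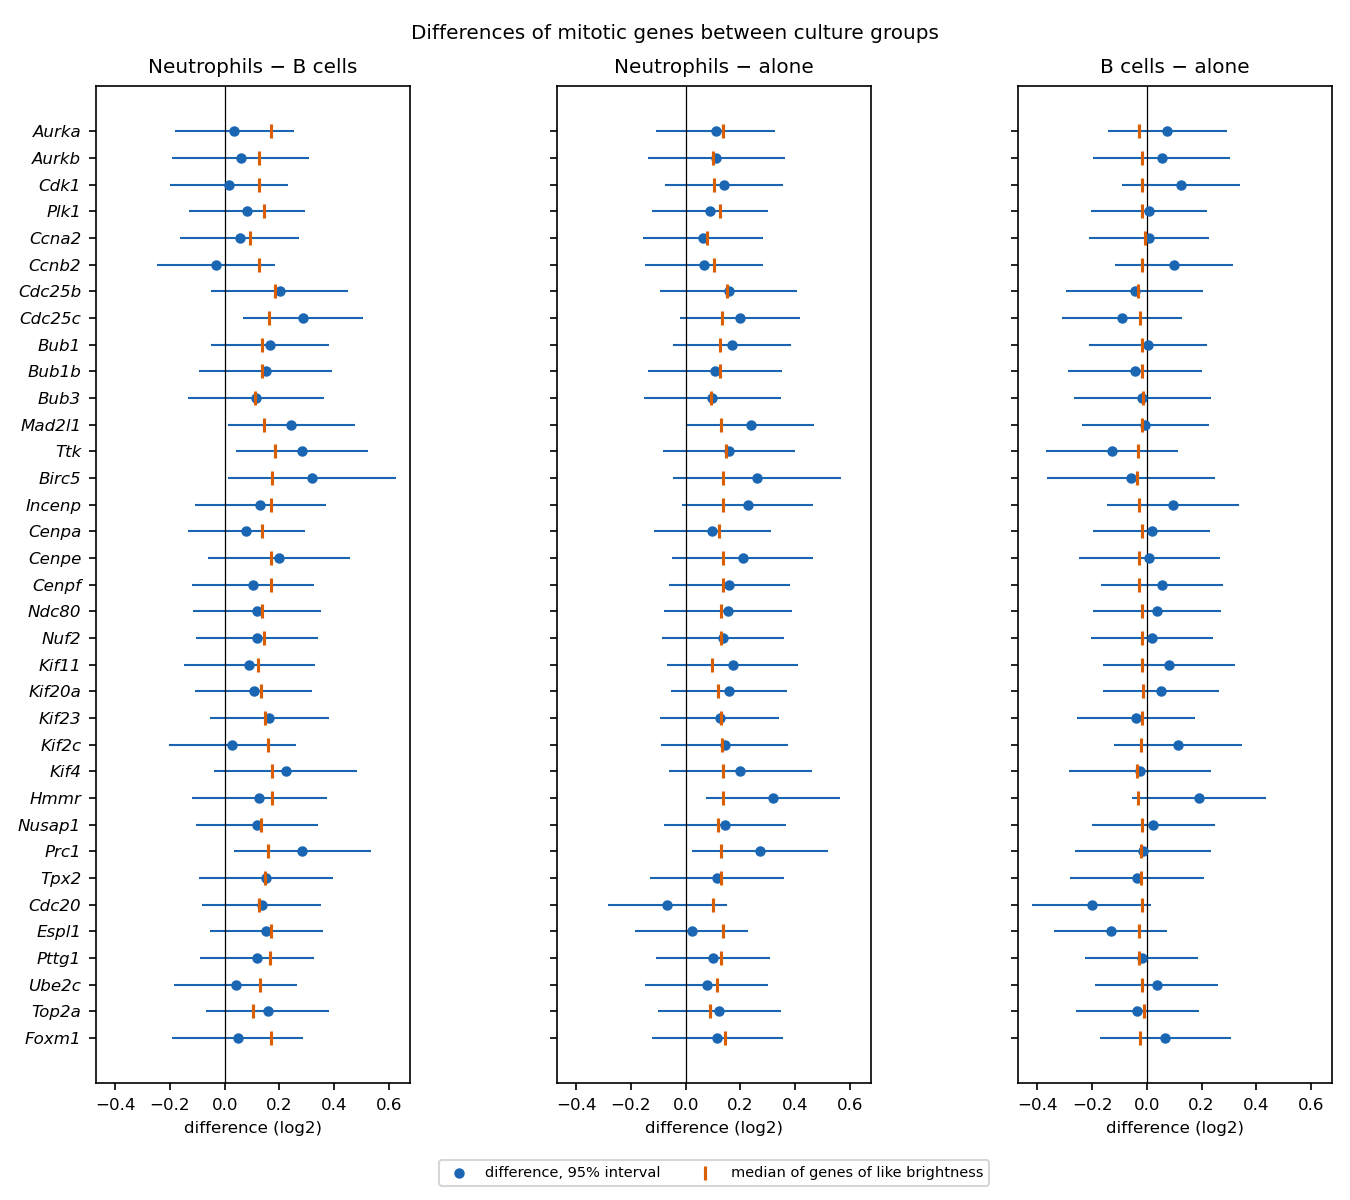
Log2 differences of the 35 mitotic genes (points) with 95% intervals (lines) in the 3 comparisons, ordered by role, with the median difference of other genes within 0.25 log2 of the same mean brightness as a short vertical mark. All 35 marks lie inside the interval beside them in each comparison, and in both comparisons with neutrophils the marks are to the right of 0.

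The kinases that drive mitosis stood close together with neutrophils and with B cells. Cdk1 stood at 10.99 and 10.99 on the arrays of DP42 cells alone, 11.19 and 11.05 on the B-cell arrays, and 11.14 and 11.13 on the neutrophil arrays (log2). Both neutrophil arrays lay above both alone arrays and between the B-cell arrays. Its log2 difference was 0.14 ± 0.09 (SE) against culture alone (adjusted p = 0.440, limma) and 0.02 ± 0.09 against B cells. Plk1, the Polo-like kinase that acts at centrosomes and kinetochores, had values of 10.40 and 10.42 for cells alone, 10.47 and 10.36 for the B-cell group, 10.51 and 10.49 for the neutrophil group, with differences of 0.09 from alone and 0.08 from B cells. Aurka, which matures centrosomes, had values of 9.74 and 9.76 for cells alone, 9.89 and 9.75 for the B-cell group, 9.86 and 9.85 for the neutrophil group. Its highest array was B-cell replicate 1, and its lowest an alone array. Aurkb, the catalytic part of the chromosomal passenger complex, had values of 11.06 and 11.07 for cells alone, 11.23 and 11.01 for the B-cell group, 11.11 and 11.25 for the neutrophil group, so its neutrophil arrays and its B-cell arrays overlapped. Against B cells the 4 kinases had differences from 0.02 to 0.08, and against culture alone from 0.09 to 0.14.

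Cyclins are the partners of Cdk1 and Cdc25 phosphatases its activators. Ccna2, the gene of cyclin A2, which acts from S phase into early mitosis, had values of 11.61 and 11.66 for cells alone, 11.72 and 11.57 for the B-cell group, 11.70 and 11.70 for the neutrophil group. Ccnb2, a mitotic B-type cyclin, had values of 10.95 and 10.97 for cells alone, 11.11 and 11.01 for the B-cell group, 11.07 and 10.98 for the neutrophil group. Neither cyclin separated the neutrophil arrays from the B-cell arrays, and Ccnb2 was the only measured member that stood lower with neutrophils than with B cells, by a difference of -0.03 ± 0.09 (adjusted p = 0.838). Cdc25c, a phosphatase that removes inhibitory phosphates from Cdk1, stood at 8.51 and 8.48 on the arrays of DP42 cells alone, 8.48 and 8.33 on the B-cell arrays, and 8.68 and 8.71 on the neutrophil arrays. Both neutrophil arrays exceeded the other 4, and the difference from B cells was 0.29 ± 0.10 (95% interval 0.07 to 0.51), with an adjusted p of 0.193 in limma. Its relative Cdc25b stood 0.20 ± 0.11 above B cells and 0.16 ± 0.11 above culture alone. The call was not reached for either phosphatase.

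The spindle checkpoint genes stood higher with neutrophils in 5 of 5 cases in both comparisons, as most genes of their brightness did. The differences were 0.11 to 0.28 against B cells and 0.10 to 0.24 against culture alone. Mad2l1, which encodes the Mad2 protein that sequesters Cdc20, had values of 10.35 and 10.45 for cells alone, 10.48 and 10.31 for the B-cell group, 10.60 and 10.67 for the neutrophil group. The neutrophil arrays lay above all other arrays, and the differences were 0.24 ± 0.10 from B cells (adjusted p = 0.240) and 0.24 ± 0.10 from alone (adjusted p = 0.275), neither past the threshold. Ttk, the Mps1 kinase at the top of the checkpoint, had values of 9.51 and 9.34 for cells alone, 9.39 and 9.22 for the B-cell group, 9.60 and 9.57 for the neutrophil group. For Ttk 1 alone array was close to the neutrophil arrays, and the difference was 0.28 ± 0.11 from B cells (adjusted p = 0.215, limma) and 0.16 ± 0.11 from alone. Bub1, a checkpoint kinase of the kinetochore, had values of 10.65 and 10.59 for cells alone, 10.69 and 10.57 for the B-cell group, 10.81 and 10.77 for the neutrophil group, with both neutrophil arrays on top. Bub1b, which encodes BubR1, and Bub3, the scaffold that brings both to kinetochores, stood 0.15 and 0.11 above B cells, and in both genes B-cell replicate 1 lay inside the neutrophil range.

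**Figure D3:**
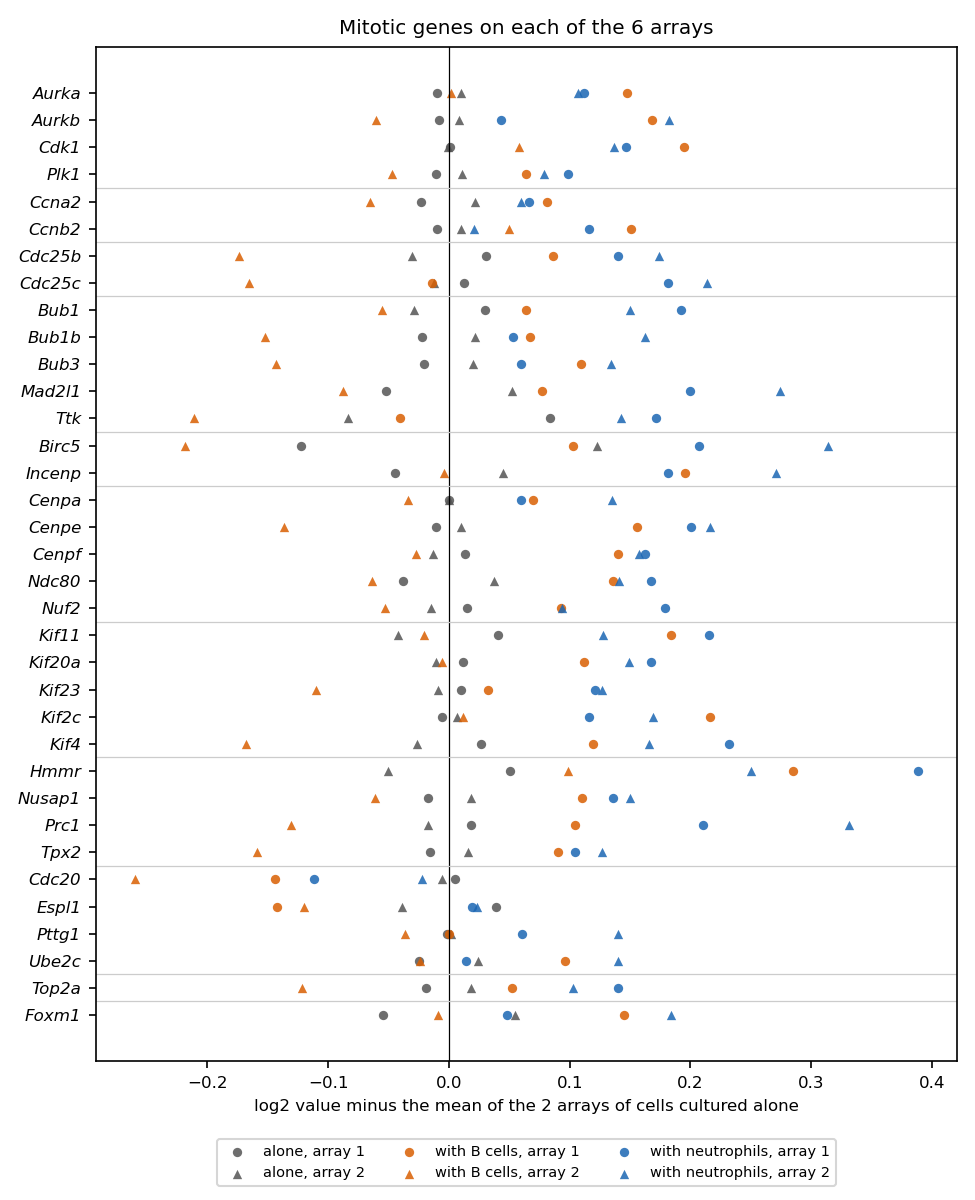
Each measured mitotic gene on each array, as its log2 value minus the mean of the 2 arrays of cells cultured alone (x axis), with circles for array 1 and triangles for array 2 of each group and lines between roles. Neutrophil arrays (blue) lie to the right in most genes, and B-cell array 1 (orange circles) is often beside them. B-cell array 2 (orange triangles) is the lowest array for 24 of 35 genes, and for 71.9% of 6609 other genes in their brightness range.

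Among the chromosomal passengers, Birc5 had the widest spread of all members. It encodes survivin, which docks the passenger complex at centromeres and is also an inhibitor of apoptosis. Its values were 8.63 and 8.87 on the arrays of DP42 cells alone, 8.85 and 8.53 on the B-cell arrays, and 8.96 and 9.06 on the neutrophil arrays, a range of 0.53. Both neutrophil arrays were highest, but alone replicates differed by 0.25 and B-cell replicates by 0.32, about as much as the difference of 0.32 ± 0.13 between neutrophil and B-cell means (adjusted p = 0.241). Against culture alone it was 0.26 ± 0.13 (adjusted p = 0.344). Incenp, the scaffold of that complex, stood 0.23 ± 0.11 above culture alone and 0.13 ± 0.11 above B cells, where B-cell replicate 1 overlapped the neutrophil arrays.

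Centromere and kinetochore genes were higher with neutrophils in 5 of 5 cases, as most genes of their brightness were. The differences were 0.08 to 0.20 against B cells and 0.10 to 0.21 against culture alone. Cenpa, the histone H3 variant that marks centromeres, had values of 10.68 and 10.68 for cells alone, 10.75 and 10.65 for the B-cell group, 10.74 and 10.82 for the neutrophil group. Alone arrays agreed to the second decimal, and the difference from alone was 0.10 ± 0.09. Ndc80, which with Nuf2 forms the arm that grips microtubules, had values of 10.51 and 10.58 for cells alone, 10.68 and 10.48 for the B-cell group, 10.71 and 10.69 for the neutrophil group. Its differences were 0.12 from B cells and 0.15 from alone, and those of Nuf2 were 0.12 and 0.14. The kinetochore motor Cenpe stood 0.21 ± 0.11 above culture alone (adjusted p = 0.363) and the large coiled-coil protein gene Cenpf 0.16 ± 0.10 (adjusted p = 0.406).

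The 5 mitotic kinesins had differences from 0.12 to 0.20 against culture alone and from 0.03 to 0.22 against B cells. Kif11, the motor that pushes spindle poles apart, had values of 11.13 and 11.05 for cells alone, 11.27 and 11.07 for the B-cell group, 11.30 and 11.22 for the neutrophil group. B-cell replicate 1 sat between the neutrophil arrays, and the difference from B cells was 0.09 ± 0.11. Kif2c, a depolymerase that corrects wrong attachments, had values of 10.00 and 10.01 for cells alone, 10.22 and 10.02 for the B-cell group, 10.12 and 10.17 for the neutrophil group. Its highest array was a B-cell one, so the difference from B cells was only 0.03 ± 0.10, beside 0.14 ± 0.10 from alone. The chromokinesin Kif4 stood 0.22 above B cells and 0.20 above culture alone. Kif20a and Kif23, motors of the central spindle and of cytokinesis, stood 0.16 and 0.12 above culture alone, with neutrophil arrays above those of both other groups.

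Among the spindle microtubule proteins, Hmmr and Prc1 stood furthest from culture alone. Hmmr, a hyaluronan receptor that also binds spindle microtubules, had values of 8.57 and 8.47 on the arrays of DP42 cells alone, 8.81 and 8.62 on the B-cell arrays, and 8.91 and 8.77 on the neutrophil arrays. Both co-cultures lay above both alone arrays, and the difference from alone was 0.32 ± 0.11 with neutrophils (adjusted p = 0.190) and 0.19 ± 0.11 with B cells (unadjusted p = 0.11 in limma). Prc1, which bundles the antiparallel microtubules of the central spindle, had values of 10.02 and 9.98 on the arrays of DP42 cells alone, 10.10 and 9.87 on the B-cell arrays, and 10.21 and 10.33 on the neutrophil arrays. Its neutrophil arrays lay above the other 4, with a difference of 0.28 ± 0.11 from B cells (95% interval 0.03 to 0.53, adjusted p = 0.221) and 0.27 ± 0.11 from alone (adjusted p = 0.252). Tpx2, the activator of Aurora A on the spindle, had values of 10.29 and 10.32 for cells alone, 10.40 and 10.15 for the B-cell group, 10.41 and 10.44 for the neutrophil group. Its neutrophil arrays were the highest, with B-cell replicate 1 next. Nusap1, which stabilises spindle microtubules, stood 0.14 above culture alone.

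Among the genes of anaphase onset, Cdc20 and Espl1 had the lowest differences of the list against culture alone. Cdc20, the checkpoint target that activates the anaphase-promoting complex, had values of 11.22 and 11.21 on the arrays of DP42 cells alone, 11.07 and 10.96 on the B-cell arrays, and 11.11 and 11.20 on the neutrophil arrays. Both alone arrays were above all co-culture arrays, though the nearest neutrophil array was only just below. The difference from alone was -0.07 ± 0.10 with neutrophils and -0.20 ± 0.10 with B cells (unadjusted p = 0.065, adjusted p = 1.00, limma). Espl1, the gene of separase, had values of 9.88 and 9.80 on the arrays of DP42 cells alone, 9.70 and 9.72 on the B-cell arrays, and 9.86 and 9.86 on the neutrophil arrays. The B-cell arrays were the lowest, and the neutrophil arrays lay between the alone arrays, so that its difference was -0.13 ± 0.09 for B cells and 0.02 ± 0.09 for neutrophils against culture alone. Pttg1, which encodes securin, the inhibitor of separase, had values of 8.56 and 8.56 for cells alone, 8.56 and 8.52 for the B-cell group, 8.62 and 8.70 for the neutrophil group. Its neutrophil arrays were the highest, and alone and B-cell arrays overlapped. Ube2c, the ubiquitin-conjugating enzyme of the complex, stood 0.08 ± 0.10 above culture alone. None of the 4 passed.

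Top2a and Foxm1 stand on their own in the list. Top2a, which untangles sister chromatids, had values of 11.40 and 11.44 on the arrays of DP42 cells alone, 11.47 and 11.30 on the B-cell arrays, and 11.56 and 11.53 on the neutrophil arrays. Neutrophil arrays were the highest and B-cell replicate 2 the lowest, and the difference from B cells was 0.16 ± 0.10 (adjusted p = 0.356). Foxm1, a transcription factor of many of the genes above, had values of 9.61 and 9.72 on the arrays of DP42 cells alone, 9.81 and 9.65 on the B-cell arrays, and 9.71 and 9.85 on the neutrophil arrays. Its arrays overlapped in all 3 comparisons with a group mean 0.12 above culture alone with neutrophils and 0.07 with B cells.

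Counted over arrays, both neutrophil arrays lay above both alone arrays for 31 of 35 genes, where 35.6% of all genes did so, and below them for 1, Cdc20. Both lay above both B-cell arrays for 21 of 35, against 30% of all genes. B-cell arrays were above both alone arrays for 4 and below for 3, against 13.5% of all genes each way. These shares of all genes mix dim and bright ones, which moved differently. Among the 6609 other genes whose mean brightness lay in the range of the mitotic genes (8.53 to 11.66), 74.2% had both neutrophil arrays above both alone arrays and 64.2% above both B-cell arrays, beside 88.6% and 60.0% of the mitotic genes. In that range the B-cell arrays were above both alone arrays for 6.91% of genes and below for 16.2%, beside 11.4% and 8.57% of the mitotic genes. Likewise 91.5% of those genes had a difference above 0 from culture alone and 94.4% from B cells, beside 97.1% of mitotic genes in both.

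The mitotic genes were then set against genes of equal brightness. For each member the median difference of all other genes within 0.25 log2 of its mean was taken, over 276 to 1509 genes. Against B cells these medians ran from 0.09 to 0.18, and 15 of 35 mitotic genes lay above theirs, with a median of -0.02 for member minus neighbours. Against culture alone the medians ran from 0.08 to 0.15, and 22 of 35 lay above theirs, with a median of 0.01. With B cells against alone they ran from -0.04 to -0.01, and 24 of 35 lay above theirs, with a median of 0.03. The members furthest above their neighbours were Birc5 against B cells, by 0.14, and Hmmr against culture alone, by 0.18 with neutrophils and 0.22 with B cells. Furthest below were Ccnb2 against B cells, at -0.16, and Cdc20 against culture alone, at -0.17 with neutrophils and -0.18 with B cells. These are descriptions of single genes, and 0 of them passed limma's test.

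**Figure D4:**
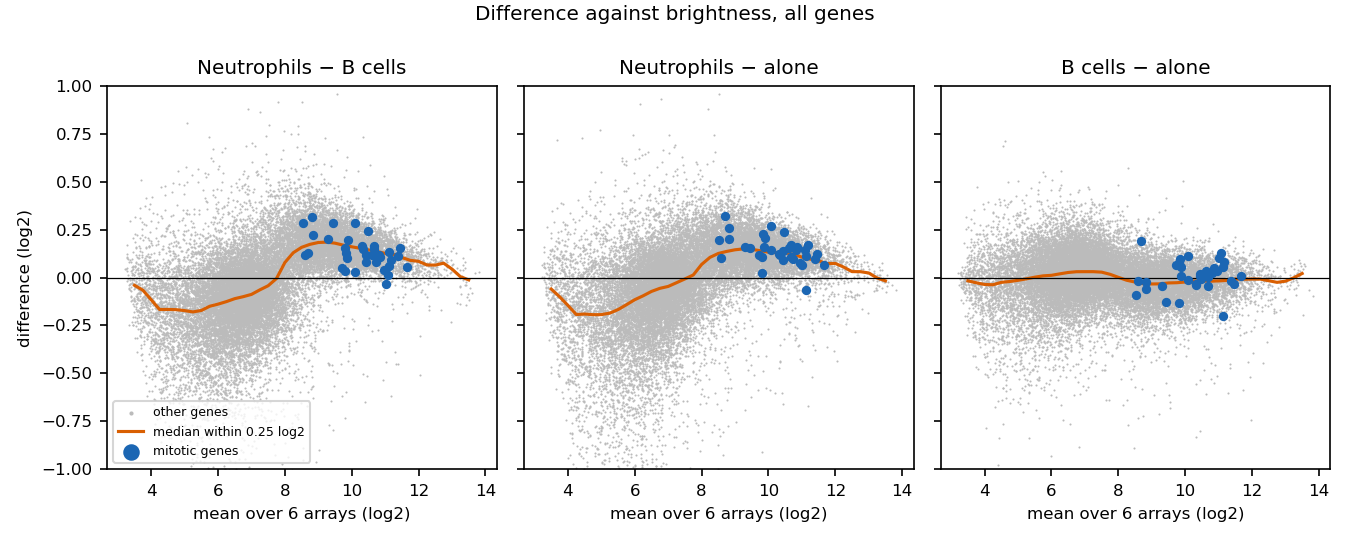
Log2 difference (y axis) against mean log2 value over the 6 arrays (x axis) for all 22180 genes in the 3 comparisons, with mitotic genes in blue and the median of other genes within 0.25 log2 as a line; the y axis stops at 1 and leaves out 116, 206 and 5 genes from left to right. In both comparisons with neutrophils the line is below 0 for dim genes and above 0 for genes as bright as the mitotic ones, which scatter around it.

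The array means show where the small differences lie. The mean over the 35 genes was 10.19 and 10.20 for cells alone, 10.29 and 10.12 for the B-cell group and 10.33 and 10.35 for the neutrophil group. B-cell replicate 1 exceeded replicate 2 for 34 of 35 mitotic genes, all but Espl1, and for 90.2% of genes in the same brightness range. B-cell replicate 1 lay above both alone arrays for 29 of 35 genes and replicate 2 below both for 25 of 35. These counts were not made for other genes. The mean of genes in that brightness range moved likewise, at 9.73 and 9.72 for cells alone, 9.77 on B-cell replicate 1 and 9.61 on replicate 2. Replicate 2 was the lowest array for 68.6% of mitotic genes, 71.9% of genes in that range and 31.7% of all genes. The arrays with the higher mitotic mean were those with the lower receptor mean, in exactly inverse order over all 6 arrays, which are 3 groups and not 6 independent points. With the receptor mean as a covariate in the fit the median of the members became -0.08 against culture alone and -0.06 against B cells, so the sign of the median turned, and 0 members passed (0 in either comparison at an unadjusted p under 0.05). The part of this array-wide shift in the member values was not otherwise tested. Both neutrophil arrays had the lowest receptor means, and within groups the B-cell arrays differed most in it. Covariate and group can thus hardly be told apart, and the turned sign is no measured effect. For Cdk1 the standard error against culture alone was 0.16 with the covariate and 0.09 without it. Quantile normalisation left 0.07 and 0.03, and centring on array medians gave 0.21 and 0.21.

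**Figure D5:**
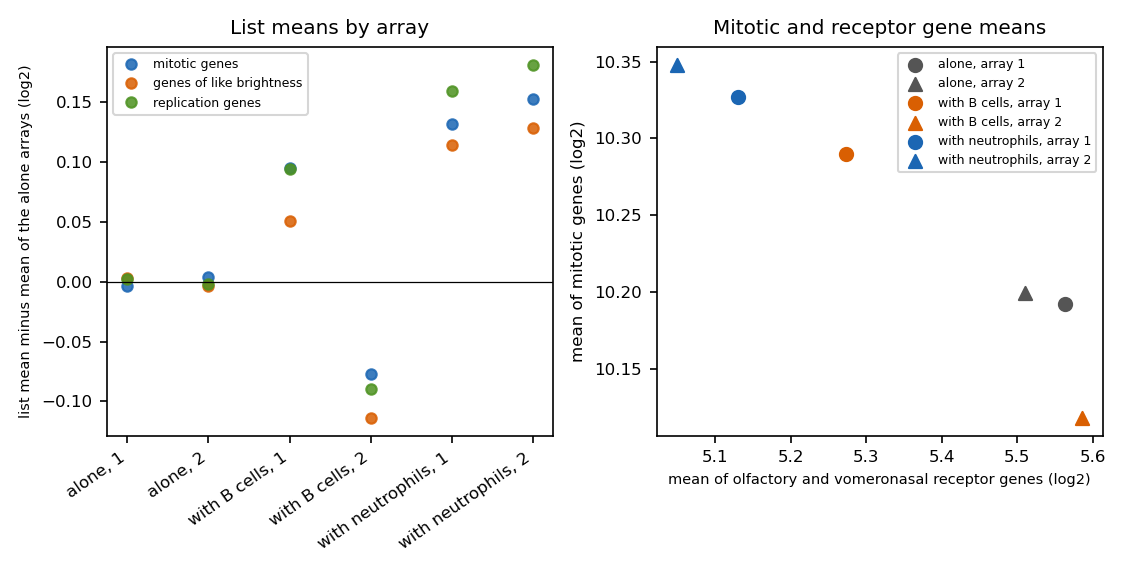
Left, mean log2 value of the 35 mitotic genes, of 6609 other genes in their brightness range and of 38 DNA replication genes on each array, minus the mean of the alone arrays; right, the mitotic mean against the mean of 1394 olfactory and vomeronasal receptor genes, 1 point an array. All 3 lists are lowest on B-cell array 2 and highest on the neutrophil arrays, and the arrays run from B-cell array 2 (5.59 and 10.12) to neutrophil array 2 (5.05 and 10.35).

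The comparison with B cells turns on which B-cell array is used. Without B-cell replicate 1 the median was 0.20 and 7 of 35 members were called higher with neutrophils (limma, where the single B-cell array left is assumed to vary like the other groups), against 11.7% of all genes called higher. These were Birc5, Cdc25b, Cdc25c, Cenpe, Kif4, Prc1 and Ttk, with differences from 0.33 for Cdc25b to 0.48 for Birc5. The share of all genes mixes dim and bright ones, and the share of equally bright genes is not given for this fit. Whether mitotic genes were called more often than equally bright genes can therefore not be read from these calls. Without B-cell replicate 2 the median was 0.03, 0 members passed with 1 at an unadjusted p under 0.05, and 0.00451% of all genes were called higher. B cells against culture alone turned with the array too, at -0.06 without replicate 1 and 0.10 without replicate 2. Against culture alone with neutrophils, the median stayed between 0.13 and 0.14 when an alone or a neutrophil array was left out. Leaving out a B-cell array cannot change that median in a fit of group means.

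Other genes of mitosis were counted in the same way. From 121 further symbols 113 were measured, and 0 passed limma's test in any comparison, with 24 higher against B cells and 22 against culture alone at an unadjusted p under 0.05, and 1 lower for B cells against alone. These 24 and 22 were 21.2% and 19.5% of the 113, beside 8.1% and 5.97% of all genes and 16.8% and 10.4% of genes in the brightness range of the 35. That range, 8.53 to 11.66, is narrower than the 7.15 to 12.3 of these 113 genes, so it does not match them exactly. Their medians were 0.17 against B cells with 113 of 113 above 0, 0.17 against culture alone with 109 of 113, and -0.01 for B cells against alone with 51 of 113. Most genes in the brightness range of the 35 were also above 0 in both comparisons with neutrophils. By role, the 27 kinetochore genes had medians of 0.24 and 0.21, the 19 condensin and cohesin genes 0.15 and 0.17, and the 17 subunits and partners of the anaphase-promoting complex 0.20 and 0.09, against B cells and culture alone. Ckap2l, a spindle pole protein, had the largest difference from B cells, 0.44 ± 0.14 (adjusted p = 0.177), followed by the kinetochore gene Ska2 at 0.37 ± 0.14. The smallest were Gtse1 at 0.01 ± 0.10 and the proliferation marker gene Mki67 at 0.03 ± 0.10. Against culture alone the extremes were Ckap2l at 0.40 ± 0.14 and Ska3, of the same complex as Ska2, at 0.37 ± 0.10 (adjusted p = 0.113), and Anapc13 at -0.11 ± 0.10 and Anapc5 at -0.03 ± 0.10 among the lowest.

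Anapc13, a small subunit of the anaphase-promoting complex, stood at 10.66 and 10.76 on the arrays of DP42 cells alone, 10.38 and 10.32 on the B-cell arrays, and 10.54 and 10.65 on the neutrophil arrays. Both co-cultures lay below both alone arrays, as they did for Cdc20, and the difference of B cells from alone was -0.36 ± 0.10 (95% interval -0.58 to -0.14, unadjusted p = 0.0052, adjusted p = 1.00, limma). Anapc10, which helps the complex recognise its substrates, stood -0.25 ± 0.11 in the same comparison. The highest there were Cdc25a at 0.19 ± 0.12 and Sgo2a, a guardian of centromeric cohesion, at 0.16 ± 0.10. The 38 measured genes of DNA replication, set beside them as 1 comparison list, had medians of 0.15, 0.18 and 0.00 in the 3 comparisons, with 0 called in limma. At an unadjusted p under 0.05, 5, 6 and 0 of them were higher, and the first 2 counts are 13.2% and 15.8%, beside the same 8.1% and 5.97% of all genes and 16.8% and 10.4% of genes as bright as the mitotic ones. Of the replication genes 71.1% were lowest on B-cell replicate 2, beside 68.6% of the mitotic genes and 71.9% of genes as bright as the mitotic ones.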

How the data were processed

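The authors deposited 1 log2 value for each probe set and array; the submitters' processing notes name RMA, which subtracts background, normalises between arrays and summarises probes. The log2 scale was taken from the range of the values, and the array model and software version are not given here. A change shared by most genes could be reduced or removed by such normalisation. The arrays were still not fully alike, as their upper quartiles over all probe sets ran from 8.63 (B-cell replicate 2) to 8.74 (neutrophil replicate 1). Of 41345 probe sets, 23521 named 1 gene, 1814 several and 16010 none, per the platform annotation; the brightest per gene was kept (22180 genes). The fit of 3 group means used limma 3.58.1 (R 4.3.3) and every array, which leaves 3 degrees of freedom (prior: 5.55); tests were two-sided. The number of arrays limits the precision. The procedure was tested on simulated data with a spread shared by all groups and with changes larger than those of the mitotic genes. That test does not cover the wider spread of the B-cell arrays or changes as small as those seen here. Figures come from matplotlib 3.10.9 (Python 3.11.15).

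The members, lists and tests were chosen with earlier results of these data known, so no p-value is given for a list. Values on every array were printed for Cdk1, Ccna2, Aurka, Aurkb, Plk1, Bub1, Mad2l1, Cdc20, Pttg1, Espl1, Birc5, Cenpa, Ndc80, Kif11, Tpx2, Top2a and Foxm1, and for the 3 highest and 3 lowest members of each comparison, and of other mitosis genes the 2 highest and 2 lowest were named. Alternatives tried were a filter on dim genes, trend and robust variance, quantile normalisation, median centring, probe set means, fits of 4 arrays, a replicate block, the receptor covariate, an adjusted p of 0.1, comparison with genes of equal brightness and leaving out each array.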

Additional observations from a re-analysis of the deposited data

How the results depend on the processing

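Across the alternatives, 0 of 35 mitotic genes passed in limma against culture alone or for B cells against alone. Against B cells 0 passed except without B-cell replicate 1, a fit that rests on a single B-cell array. The median against B cells (0.12) became 0.033 with quantile normalisation, 0.205 with centring on array medians, -0.0569 with the receptor covariate, -0.0200 minus genes within 0.25 of the same brightness and -0.0238 within 0.5, and 0.0339 to 0.204 with an array left out. Against culture alone (0.14) it became 0.0701 with quantile normalisation, -0.0839 with the receptor covariate, and 0.0114 and 0.0105 minus genes of equal brightness within 0.25 and 0.5. For B cells against alone (0.01) it became -0.0117 with centring, -0.0319 with the receptor covariate and -0.0611 to 0.103 with an array left out.

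Counts over all genes moved more. Against B cells 11 (7 higher, 4 lower) became 91 among brighter genes, 33 with trend and robust variance, 7 with quantile normalisation, 135 with centring (45 and 90), 1 with 4 arrays, 0 with the receptor covariate (777 at an unadjusted p under 0.05), 30 at an adjusted p of 0.1 and 1 to 5453 with an array left out. Against culture alone 331 (29 higher, 302 lower) became 90 among brighter genes (21 and 69), 70 with quantile normalisation, 581 with centring, 1338 with 4 arrays, 0 with the receptor covariate (1254 at an unadjusted p under 0.05), 750 at 0.1 and 5 to 1338 with an array left out. For B cells against alone 0 (869 at an unadjusted p under 0.05) became 1 among brighter genes, 1 with trend and robust variance and 3 with centring. The causes were not tested, beyond fewer genes or arrays in some fits. With the replicate block the counts were 9, 373 and 0 in the 3 comparisons, 0 mitotic genes passed, and no call among them changed. Same-numbered arrays share a number only: their deviations from the group means correlated at -0.07, 0.07 and -0.15 across genes, which are not independent replicates.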
